A study of Mus musculus with 6 samples.

Results

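Pyramidal neurons of hippocampal field CA3 were followed through 9 gene names taken as CA3-enriched: Nectin3, Spock1, Coch, Cpne4, Bok, Iyd, Plagl1, Elavl2 and Lyd. The rule takes them by name and uses no measured value. These genes and the lists set beside them were, however, chosen with earlier results of these data known. Of the 9 names, 8 matched a gene among the 55471 in the count table, and all 8 had enough counts to be tested. The name Lyd matched no current symbol, older symbol or synonym and has no value here.

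Total RNA from the hippocampus of C57BL/6 mice (C57BL/6J in the study's methods) aged 3 to 6 months was sequenced in 6 libraries, 3 labelled Control and 3 labelled CBP-ifKO. CBP-ifKO mice carried floxed Crebbp, the gene of the histone acetyltransferase CBP, together with the tamoxifen-inducible recombinase CreERT2 under the CaMKIIα promoter, which is active in forebrain excitatory neurons and not in glia. All animals, controls included, received 5 intragastric administrations of tamoxifen at 20 mg/mL in corn oil. The treatment text and the study's methods describe controls as littermates without the recombinase, whereas the description of the Control samples names Camk2a_creERT2. The study's methods describe the RNA as pooled from the hippocampi of females, so a library is not 1 animal, and p-values below measure the spread between pools.

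CA3 lies between the dentate gyrus and CA1. Its pyramidal neurons receive the mossy fibre axons of dentate granule cells on large proximal spines, excite each other through recurrent collaterals and send Schaffer collaterals to CA1. CBP is a co-activator that CREB and many other transcription factors recruit to promoters and enhancers, where it acetylates histones. The genes followed here encode proteins of unlike function, namely cell adhesion, the extracellular matrix, calcium-dependent membrane binding, apoptosis, iodine salvage, transcription and RNA binding. None of them is restricted to CA3, and Elavl2 in particular is used by many kinds of neuron.

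The labels were checked on the deleted gene and on the transgene. Crebbp stood at 208.6, 156.4 and 208.5 CPM in the Control libraries and at 108.6, 87.1 and 99.4 CPM in the CBP-ifKO libraries, where CPM is the count scaled to a common library size, with TMM factors correcting for RNA composition. The groups did not overlap, and the log2 fold change was -0.96 (edgeR, adjusted p = 3.63e-05). Counts on Esr1, whose ligand-binding part is fused to Cre in CreERT2, lay at 5.65 to 6.29 CPM in Control and at 63.6 to 69.4 CPM in CBP-ifKO. These Esr1 counts go with the account of controls in the treatment text and not with the description of the Control samples. Ep300, the paralogue of Crebbp, had a log2 fold change of 0.18 (adjusted p = 0.321), and Arsi, which neighbours Camk2a, had 2.76 (adjusted p = 2.82e-05). The study places Arsi on the DNA construct from which the driver strain was made. It reports Arsi and Esr1 as higher also in mice with Ep300 deleted by the same driver. Total counts per library ran from 10199008 to 14950257. Of 17981 genes tested, 1149 (6.39%) passed the threshold of an adjusted p under 0.05, with 897 (4.99%) lower and 252 (1.4%) higher.

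Promoter sequence is shown for Cpne4 and Spock1, which passed the test of CBP-ifKO against Control, and for Elavl2, whose change was the smallest. The 300 bases run 5′ to 3′ on the gene's strand, from 250 before to 50 after a transcription start, and come from RefSeq on GRCm38.p6. Capitals mark CGTCA or TGACG, the core letters of the CREB site on either strand.
Cpne4: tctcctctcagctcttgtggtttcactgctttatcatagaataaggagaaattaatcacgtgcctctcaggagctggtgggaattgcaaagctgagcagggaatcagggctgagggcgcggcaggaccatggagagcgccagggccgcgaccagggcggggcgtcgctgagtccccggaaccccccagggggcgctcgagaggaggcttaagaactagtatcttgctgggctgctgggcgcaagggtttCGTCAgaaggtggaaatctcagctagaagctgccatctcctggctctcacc
Spock1: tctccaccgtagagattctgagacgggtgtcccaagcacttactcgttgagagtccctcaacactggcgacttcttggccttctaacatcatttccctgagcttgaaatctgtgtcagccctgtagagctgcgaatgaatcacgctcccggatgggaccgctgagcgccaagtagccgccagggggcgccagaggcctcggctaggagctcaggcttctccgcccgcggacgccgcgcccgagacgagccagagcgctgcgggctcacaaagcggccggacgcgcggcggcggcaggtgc
Elavl2: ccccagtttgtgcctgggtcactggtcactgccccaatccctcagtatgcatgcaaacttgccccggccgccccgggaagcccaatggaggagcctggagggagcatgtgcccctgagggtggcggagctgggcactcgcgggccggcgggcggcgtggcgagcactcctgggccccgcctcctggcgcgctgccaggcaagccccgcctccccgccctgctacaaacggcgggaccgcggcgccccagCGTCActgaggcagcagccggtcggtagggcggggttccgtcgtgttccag
The Cpne4 window is chr9:104569405-104569704 on the plus strand, that of Spock1 is chr13:57908283-57908582 on the minus strand, and that of Elavl2 is chr4:91371991-91372290 on the minus strand. In the printed windows of Cpne4, which passed the test, and Elavl2, which did not, CGTCA begins at the last base before the start. That position depends on the window printed. Counted from other annotated Elavl2 starts, the same site begins at base 15 and at base 29, and only 3 of the 6 Elavl2 windows hold it. The Spock1 window holds no copy. RefSeq gave 14 such windows for the 8 genes, of which 6 belong to Elavl2, 2 to Cpne4 and 1 to each of the other genes. The core occurred in 5 of the 14, and it was present in 20.8% of all 32851 windows of this length. These 5 hold 3 distinct sites, in Cpne4, Elavl2 and Iyd, because the Elavl2 site falls in 3 overlapping windows. The other Cpne4 window holds no core. The full palindrome TGACGTCA occurred in 0 of the 14, and in 1.79% of all windows. A match of letters is a description and says nothing of binding. The printed windows hold 14 (Cpne4), 29 (Spock1) and 27 (Elavl2) CpG dinucleotides and the other Cpne4 window holds 1, where the median of all windows was 7 and the quartiles were 3 and 20.

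In CBP-ifKO, 2 of the 8 CA3 genes passed the test, both lower: Cpne4, a copine, by 0.42 and Spock1, a matrix proteoglycan, by 0.36 on the log2 scale. The share of all genes called lower was 4.99%. None of the 8 was called higher. DESeq2 and limma-voom each called 2 as well, and 4 had an unadjusted p under 0.05 with edgeR. The other 6 did not pass, among them the 3 at the smallest sizes, Nectin3, Bok and Elavl2, which stood at 92.1% to 97.0% of their Control means. All 8 log2 fold changes were below 0, as were 50.7% of those of all genes tested, and their median was -0.32 against -0.0033 over all genes. The sign is not particular to CA3 genes. Among the marker lists read below, those of CA1, pan-neuronal genes and astrocytes also had all 8 below 0, and the others were mixed. The libraries of the groups did not overlap for 2 of the 8 CA3 genes, Cpne4 and Coch, where 25.6% of all genes tested had groups that did not overlap. In RNA of whole hippocampus, fewer cells of a type and less RNA per cell cannot be told apart.

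**Figure D1:**
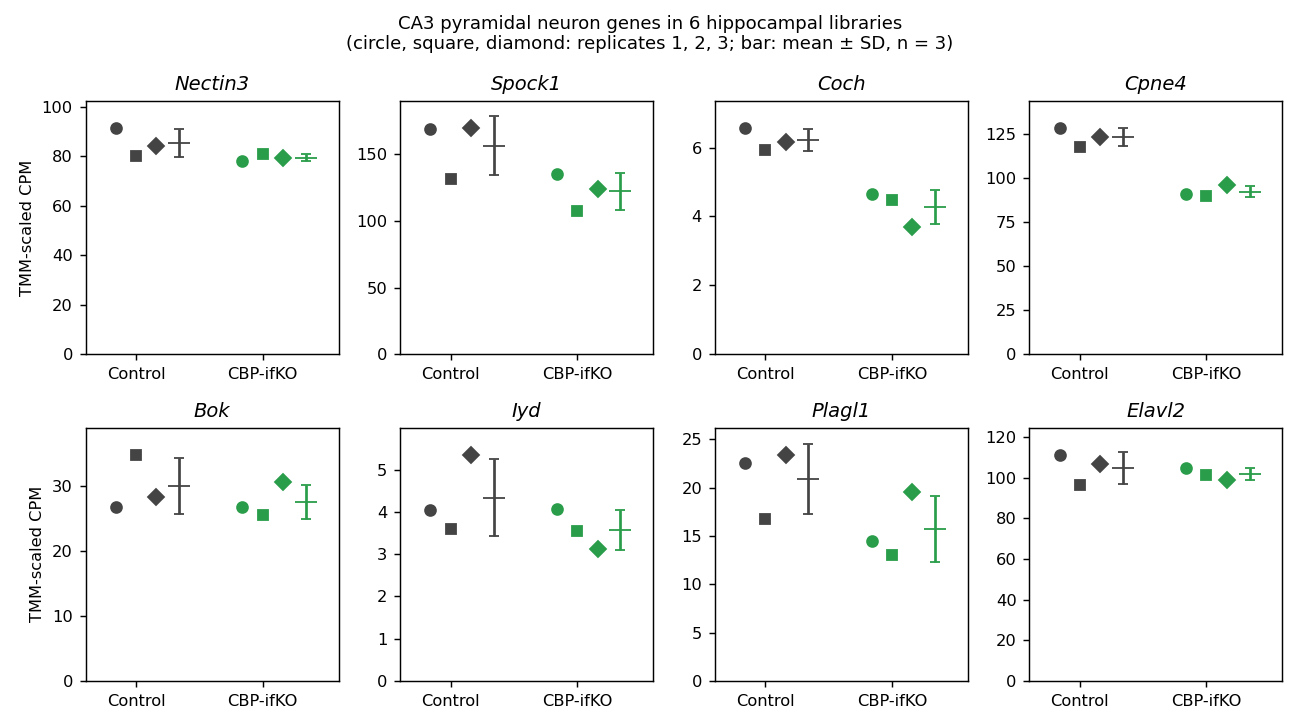
TMM-scaled CPM of the 8 CA3 genes in each of the 6 libraries, Control in grey and CBP-ifKO in green, with the marker shape giving the replicate number and the bar giving mean ± SD (n = 3); each panel has its own axis from 0. Cpne4 and Coch are the panels in which every CBP-ifKO library lies below every Control library, while Spock1, which also passed the test, overlaps through Control replicate 2.

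The order of the genes per length was taken in the Control libraries as RPKM, which is CPM divided by the exon length in kilobases. Cpne4 had the highest level at 22.5 ± 0.966 RPKM (SD, n = 3), followed by Spock1 at 18.7 ± 2.63 and Bok at 16.3 ± 2.33. Elavl2 at 12.6 ± 0.925 RPKM and Nectin3 at 6.68 ± 0.449 RPKM came next. Plagl1 (2.67 ± 0.463), Iyd (2.67 ± 0.561) and Coch (2.07 ± 0.109 RPKM) were the lowest. Among neighbours in this order, Spock1 and Bok overlapped across the Control libraries, as did Plagl1 and Iyd, whereas the other neighbours were apart. In CBP-ifKO, Spock1 at 14.6 RPKM stood just under Bok, and Plagl1 at 2.01 RPKM stood under Iyd at 2.21 RPKM. Both neighbours had exchanged places by less than the SD of either gene.

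Among genes of the cell surface, Nectin3 encodes nectin-3, an immunoglobulin-like adhesion molecule of CA3 dendrites that binds nectin-1 on mossy fibre terminals (ENSMUSG00000022656, chr16:46387706-46498525, minus strand, GRCm38). It stood at 91.3, 80.0 and 84.1 CPM in Control replicates 1 to 3 and at 77.8, 80.6 and 79.3 CPM in the CBP-ifKO libraries in the same order. The groups overlapped, since CBP-ifKO replicate 2 was above Control replicate 2, and the CBP-ifKO libraries lay closer together than the Control libraries. The means were 85.2 ± 5.73 and 79.3 ± 1.41 CPM (SD, n = 3 each), and the log2 fold change of -0.10 (SE 0.067) did not pass (edgeR, adjusted p = 0.416). Its 95% interval ran from -0.24 to 0.04, so a decrease of more than 0.24 on the log2 scale lies outside it.

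Spock1 encodes testican-1, a secreted heparan sulfate and chondroitin sulfate proteoglycan of the brain's extracellular matrix (ENSMUSG00000056222, chr13:57421195-57908332, minus strand). Its CPM were 168.7, 131.2 and 169.9 in Control and 135.3, 107.5 and 123.9 in CBP-ifKO. Replicate 2 was the lowest library of both groups, and Control replicate 2 lay below CBP-ifKO replicate 1, so the groups overlapped. Spock1 fell by 0.36 on the log2 scale (SE 0.095, 95% interval -0.56 to -0.16; edgeR, adjusted p = 0.0317), to 78.0% of its Control mean. This was a call near the threshold. Leaving out replicate 1 or 3 of Control lost it (adjusted p = 0.0990 and 0.164), as did leaving out replicate 2 or 3 of CBP-ifKO (0.182 and 0.111). It was lost too when the dispersions were estimated robustly (0.0817), while the log2 fold change stayed between -0.47 and -0.26.

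Coch encodes cochlin, a secreted protein with LCCL and von Willebrand factor A domains that is best known from the inner ear (ENSMUSG00000020953, chr12:51593341-51605771, plus strand). It was measured at 6.57, 5.93 and 6.15 CPM in Control and at 4.65, 4.47 and 3.70 CPM in CBP-ifKO. Every CBP-ifKO library lay below every Control library. The log2 fold change of -0.54 was the largest in size of the 8 genes, but with an SE of 0.17 it did not pass (edgeR, adjusted p = 0.0655). Coch rests on 45 to 70 counts per library, for which counting alone gives a coefficient of variation of 12.9%, against 5.28% between Control and 11.8% between CBP-ifKO libraries. It passed with offsets for GC content and length (adjusted p = 0.0487) and gave 0.227 with DESeq2.

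Cpne4 encodes copine-4, a member of a family of calcium-dependent phospholipid-binding proteins with C2 domains (ENSMUSG00000032564, chr9:104547286-105034544, plus strand). It stood at 128.7, 118.1 and 123.8 CPM in Control and at 90.9, 90.2 and 96.0 CPM in CBP-ifKO. The lowest Control library was above the highest CBP-ifKO library by more than the whole range of either group. The means were 123.5 ± 5.31 and 92.4 ± 3.17 CPM (SD, n = 3 each), so that CBP-ifKO held 74.8% of the Control level. Cpne4 fell by 0.42 on the log2 scale (SE 0.063, 95% interval -0.55 to -0.29; edgeR, adjusted p = 0.000715). It passed in all 17 other settings run, with log2 fold changes from -0.44 to -0.37 and a highest adjusted p of 0.0073. The study lists Cpne4 among its lower genes, a list that required retrieval in these samples and in 2 further RNA-seq experiments, so its direction here is not independent evidence.

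Bok encodes a BCL-2 family protein with pro-apoptotic activity (ENSMUSG00000026278, chr1:93685660-93695764, plus strand). Its CPM were 26.8, 34.9 and 28.4 in Control and 26.7, 25.6 and 30.6 in CBP-ifKO. The groups overlapped, and Control replicate 2, the lowest Control library for the other 7 CA3 genes, was here the highest. The log2 fold change was -0.12 (SE 0.11, 95% interval -0.35 to 0.10; edgeR, adjusted p = 0.566). It was 0.01 without Control replicate 2 and 0.09 with offsets for GC content and length. The GC content of the Bok transcript was 61.0%, compared with 38.5% to 49.0% for the other 7 genes.

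Iyd encodes iodotyrosine deiodinase, the enzyme that recovers iodide from iodotyrosines in the thyroid (ENSMUSG00000019762, chr10:3540240-3554877, plus strand). It stood at 4.04, 3.61 and 5.36 CPM in Control and at 4.07, 3.55 and 3.13 CPM in CBP-ifKO. The groups overlapped, and Control replicate 3 was alone above 5 CPM. The log2 fold change of -0.27 (SE 0.20, 95% interval -0.71 to 0.16) did not pass (edgeR, adjusted p = 0.489), and it was -0.10 without Control replicate 3. With 38 to 54 counts per library, a fall as large as that of Cpne4 lies within this interval and could not be told from no change at this depth.

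Plagl1 encodes the imprinted zinc-finger transcription factor also known as Zac1 (ENSMUSG00000019817, chr10:13060504-13131694, plus strand). Its CPM were 22.5, 16.7 and 23.4 in Control and 14.4, 13.1 and 19.6 in CBP-ifKO. Replicate 2 was low in both groups, and CBP-ifKO replicate 3 stood above Control replicate 2, so the groups overlapped. The log2 fold change of -0.41, close to that of Cpne4 in size, had an SE of 0.15 and did not pass (edgeR, adjusted p = 0.117). The spread between libraries was 17.3% in Control and 21.9% in CBP-ifKO, the widest among the 8 genes in the latter group, where counting alone gives 6.91%. Plagl1 passed without Control replicate 2 (adjusted p = 0.0197), without CBP-ifKO replicate 3 (0.0452) and with no filter on low counts (0.0172). Of its exon bases, 0.486% are shared with Gm27741 on the other strand, and whether counting used strand is not given in the sources used here.

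Elavl2 encodes HuB, a neuronal RNA-binding protein that stabilises messages with AU-rich elements (ENSMUSG00000008489, chr4:91250763-91400785, minus strand). It stood at 111.3, 96.3 and 106.8 CPM in Control and at 104.7, 101.5 and 98.7 CPM in CBP-ifKO. All CBP-ifKO libraries lay inside the Control range. The log2 fold change was -0.04 (SE 0.067, 95% interval -0.19 to 0.10; edgeR, adjusted p = 0.774), and it crossed 0 under scaling by library totals alone (0.0021) and without Control replicate 1 (0.0015).

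**Figure D2:**
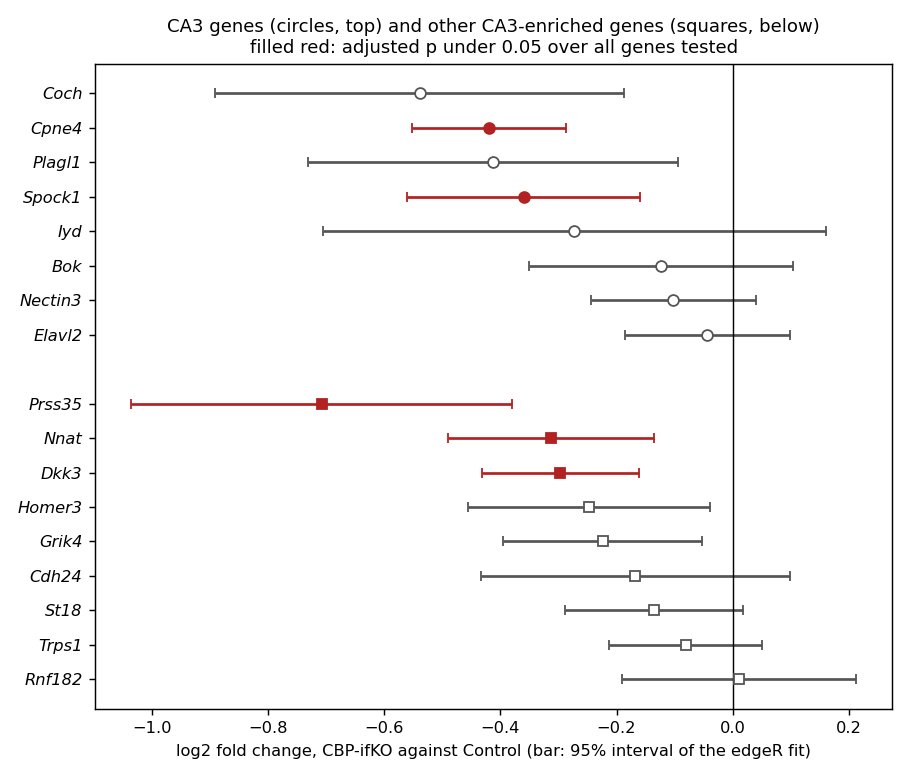
Log2 fold change of CBP-ifKO against Control with its 95% interval (edgeR) for the 8 CA3 genes and for 9 other CA3-enriched genes; filled points have an adjusted p under 0.05. The intervals, not adjusted for the number of genes, lie wholly below 0 for Cpne4, Spock1, Coch and Plagl1, of which only Cpne4 and Spock1 passed after adjustment, and those of Elavl2 and Nectin3 include 0.

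A comparison of genes inside a library does not depend on the scaling between libraries. Elavl2 was taken as the reference after its values were seen, because its change was small. The ratio of Cpne4 to Elavl2 counts was 1.16, 1.23 and 1.16 in Control and 0.869, 0.889 and 0.973 in CBP-ifKO. Cpne4 thus had the higher count of the pair in every Control library and the lower count in every CBP-ifKO library. The ratio of Spock1 to Elavl2 was 1.52, 1.36 and 1.59 in Control and 1.29, 1.06 and 1.26 in CBP-ifKO. Here the groups did not overlap, unlike the CPM of Spock1, and the low value of replicate 2 remained in both groups. Elavl2 was itself lowest among the Control libraries in replicate 2 (96.3 CPM), the library through which Spock1 overlapped. The separation may therefore come from the reference chosen and adds no support to the call of Spock1.

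The CA3 genes summed to between 486.8 and 559.9 CPM in the Control libraries and to between 426.5 and 458.6 CPM in the CBP-ifKO libraries. Control replicate 2 gave the lowest Control sum, as it gave the lowest Control value of 7 of the 8 genes and of Crebbp. Without it, 3 of the 8 genes were called and their median log2 fold change was -0.41. Without Control replicate 3, by contrast, 1 was called and the median was -0.23. The part of these libraries in the result was not tested further. Spread between replicates exceeded the counting error for Spock1, with 14.0% in Control and 11.4% in CBP-ifKO against 2.50% from counting, whereas Cpne4 had 4.30% and 3.43% against 2.83%.

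A second list of 9 CA3-enriched genes was read in the same fit, and all 9 were tested. Of these, 3 fell and none was called higher, beside 4.99% of all genes called lower, 8 log2 fold changes were below 0, and the median was -0.22. The groups did not overlap for 5, all lower, as for 13.9% of all genes. Prss35, a serine protease-like gene, stood at 9.95, 11.3 and 8.23 CPM in Control and at 5.52, 5.92 and 6.67 CPM in CBP-ifKO, and fell by 0.71 in log2 units (SE 0.15; edgeR, adjusted p = 0.0108). The groups of Prss35 did not overlap, and the call was lost without CBP-ifKO replicate 2 (adjusted p = 0.0646). Dkk3, a secreted Dickkopf-family protein and the most abundant of the list at 110 RPKM in Control, fell by 0.30 (adjusted p = 0.00989), and with replicate 1 or 3 of CBP-ifKO left out it gave -0.26 in both fits and did not pass (0.0519 and 0.0903). Nnat, the imprinted neuronatin, fell by 0.31 (adjusted p = 0.0347), a call that was lost when any library other than Control replicate 1 was left out. It was lost too with offsets for GC content and length and with scaling by library totals alone (0.0603). Grik4, the kainate receptor subunit KA1 of mossy fibre synapses, had a log2 fold change of -0.22 that did not pass (adjusted p = 0.113), although its groups did not overlap.

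Marker lists of the cells around CA3 were read beside these genes. Of all genes tested, 4.99% were called lower and 1.4% higher. Of 8 CA1 markers, 6 were lower and none higher, at a median of -0.51 in log2 fold change, and their sum was 690 to 721 CPM in Control against 504 to 526 CPM in CBP-ifKO. Of 8 CA2 markers 2 were lower, at a median of -0.07, and their sum was 179 to 207 CPM in Control against 118 to 125 CPM in CBP-ifKO. Of 10 dentate granule cell markers 3 were lower while 2 were higher, at a median of -0.04. Of 8 pan-neuronal genes 4 were lower, with a median of -0.22 and a sum of 7461 to 7643 CPM in Control against 6886 to 7092 CPM in CBP-ifKO. Of 8 forebrain excitatory neuron genes 1 was lower, with a median of -0.09. Hilar mossy cell markers, which belong to the neurons next to CA3, gave 1 lower of 5, a median of -0.14 and sums of 37.2 to 45.0 against 31.5 to 35.0 CPM. Interneuron markers gave 2 lower of 8, a median of -0.13 and sums of 699.7 to 713 against 636 to 674 CPM. Of 8 markers each of astrocytes, microglia, oligodendrocytes and endothelium, 0 passed with edgeR, DESeq2 or limma-voom, with 1, 2, 2 and 1 at an unadjusted p under 0.05 and medians from -0.14 to -0.07. No marker of any list was at 0 in all libraries. The sums of the CA1, CA2, pan-neuronal, mossy cell and interneuron lists were thus lower in the same libraries as the CA3 genes, without overlap, and their part in the result was not tested. A sum follows the most abundant genes of its list more than the others. Single log2 fold changes were mixed for CA2 (6 below 0, 2 above), mossy cell (3 and 2) and interneuron markers (7 and 1). They were all below 0 for CA1 markers and pan-neuronal genes. The sums of the dentate and excitatory neuron lists overlapped between the groups.

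Each CA3 gene was then set beside its own family or a list of genes of related function. Cpne4 belongs to the copines, of which 8 were tested. In CBP-ifKO, 5 fell (Cpne5, Cpne2, Cpne4, Cpne8 and Cpne7) and 1, Cpne9, rose, beside 4.99% of all genes called lower and 1.4% higher. The median log2 fold change of the 8 copines was -0.32. Cpne5 stood at 17.7, 16.3 and 15.6 CPM in Control and at 8.53, 9.46 and 7.08 CPM in CBP-ifKO, and fell by 0.97 in log2 units (SE 0.13; edgeR, adjusted p = 0.000306). Cpne9 stood at 10.1, 10.6 and 10.1 CPM in Control and at 16.4, 17.8 and 15.5 CPM in CBP-ifKO, with a log2 fold change of 0.69 (SE 0.11, adjusted p = 0.00154). The groups of both genes were apart, in opposite directions. Cpne2 fell by 0.49 (adjusted p = 0.00705), which did not pass without CBP-ifKO replicate 2 (0.0589). Cpne4, Cpne5 and Cpne8 are on the study's list of lower genes and Cpne9 on its list of higher genes, for both of which these samples were among the experiments used. Cpne6, the most abundant copine per length at 84.6 RPKM in Control, had a log2 fold change of 0.11 (adjusted p = 0.325), and passed as higher with offsets for GC content and length (0.25, adjusted p = 0.00699).

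Ratios of counts within a library were read for the copines too, with Cpne6 as the reference, again chosen after the values were seen. Cpne6 itself had a log2 fold change of 0.11, which lowers each ratio in CBP-ifKO. The ratio of Cpne4 to Cpne6 was 0.365, 0.304 and 0.364 in Control and 0.226, 0.246 and 0.240 in CBP-ifKO, and the groups did not overlap. The ratio of Cpne9 to Cpne6 went from 0.0285, 0.0272 and 0.0298 to 0.0407, 0.0483 and 0.0387, also without overlap and in the other direction.

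**Figure D3:**
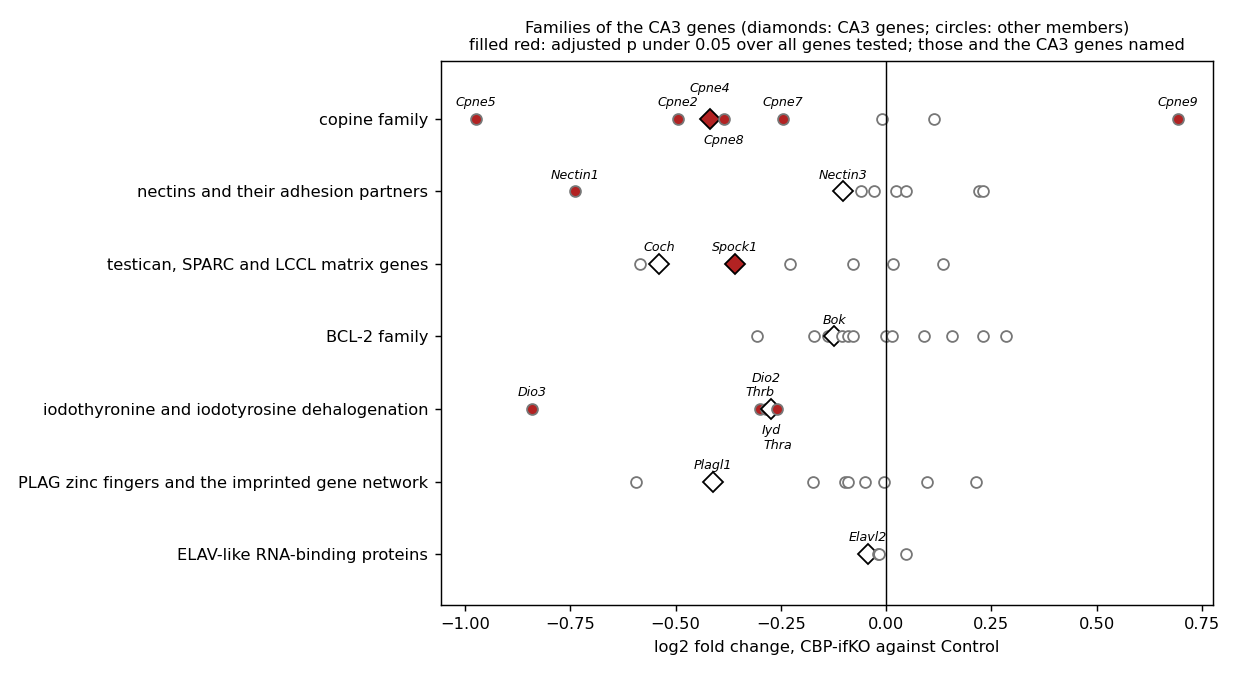
Log2 fold change of CBP-ifKO against Control for the tested genes of 7 families or lists by function, with the CA3 genes as diamonds, other listed genes as circles and red fill for an adjusted p under 0.05 (edgeR). Copines spread from -0.97 for Cpne5 to 0.69 for Cpne9, whereas the ELAV-like genes lie between -0.04 and 0.05.

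Nectin3 did not pass, whereas Nectin1, its partner on mossy fibre terminals, fell by 0.74 in log2 units (SE 0.15; edgeR, adjusted p = 0.00578). Nectin1 stood at 21.1, 17.9 and 25.7 CPM in Control and at 15.5, 10.6 and 13.0 CPM in CBP-ifKO. Its groups did not overlap, but the call did not pass without CBP-ifKO replicate 2 (adjusted p = 0.0559). It was the only call among 8 nectins and adhesion partners, beside 4.99% of all genes called lower, and their median was -0.0026. Ctnnb1, β-catenin and the most abundant of them at 72.6 RPKM in Control, had a log2 fold change of 0.05. The difference between the changes of Nectin1 and Nectin3 was not tested.

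Of 7 testican, SPARC and LCCL matrix genes, Spock1 was the only call, beside 4.99% of all genes called lower, and the median was -0.23. Its paralogue Spock2 gave -0.23 (edgeR, adjusted p = 0.0748) and Spock3 gave -0.08. Vit, which like Coch encodes a matrix protein with an LCCL domain, had a log2 fold change of -0.58 (adjusted p = 0.0524). The groups did not overlap for 3 of the 7, Vit, Coch and Spock2, all lower, beside 13.9% of all genes tested. None of these 3 genes passed. Sparcl1, or hevin, the most abundant of the list at 502 RPKM in Control, stood at 0.02, and below 0 with offsets for GC content and length.

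The enzyme encoded by Iyd removes iodine, as do the deiodinases of thyroid hormone. The deiodinases were listed with the hormone's receptors, so this is a list by function and not a gene family. Of 6 tested, 4 fell, beside 4.99% of all genes called lower, all 6 log2 fold changes were below 0, and the median was -0.28. Thra, the α receptor of thyroid hormone and the most abundant of the list at 98.1 RPKM in Control, fell by 0.26 on the log2 scale (edgeR, adjusted p = 0.0222), but gave -0.06 with offsets for GC content and length. Thrb, the β receptor, fell by 0.30 (adjusted p = 0.0252). Dio2, the activating deiodinase, fell by 0.29 (adjusted p = 0.0244) and is on the same list of lower genes of the study as Cpne4. Dio3, the inactivating deiodinase, fell by 0.84 (adjusted p = 0.0473) from a Control level of 2.72 ± 0.0849 CPM (SD, n = 3), a call lost whichever library was left out (0.0756 to 0.152). With all libraries it was also lost under limma-voom (0.0514), upper-quartile scaling (0.0524), library totals alone (0.0599), no filter on low counts (0.0607) and offsets for GC content and length (0.101). The call of Thra was lost when Control replicate 3 or any CBP-ifKO library was left out (0.0609 to 0.150), that of Thrb without Control replicate 3 or CBP-ifKO replicate 2 or 3 (0.103 to 0.174), and that of Dio2 when any library other than Control replicate 2 was left out (0.0713 to 0.128). With all libraries, Thrb (0.0527) and Dio2 (0.0558) also lost their calls when scaled by library totals alone. Iyd, at -0.27, lay near the median of these genes and was not called.

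The families of the remaining CA3 genes gave no call. Of 13 BCL-2 family genes, 0 passed with edgeR, DESeq2 or limma-voom, 2 had an unadjusted p under 0.05 and the median was -0.08. Bcl2l2, or BCL-W, the most abundant at 22.3 RPKM in Control, stood at 0.09. Of 9 PLAG zinc finger and imprinted network genes tested, 0 passed with these 3 tools, and only Plagl1 had an unadjusted p under 0.05. The median was -0.09, and Meg3, a maternally expressed noncoding RNA and the most abundant at 166 RPKM, stood at -0.10. Of the 4 ELAV-like genes, 0 passed with any of the tools and 0 had an unadjusted p under 0.05. Their log2 fold changes ran from -0.04 for Elavl2 to 0.05.

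The genes most like each called CA3 gene were sought among 17432 genes of at least 1 CPM, by the root mean square difference of log2 CPM centred over the 6 libraries. The likeness rests on the same 6 libraries and their shared scaling. A log2 fold change near that of the called gene follows from this choice, so the values below are descriptions and not further evidence. For Cpne4 the nearest were Rab26 (0.0184), a small GTPase of secretory vesicles, Myo18a (0.0304), an unconventional myosin, and Nwd2 (0.0313). The log2 fold change of Rab26 was -0.44 (edgeR, adjusted p = 0.00482). For Spock1 the nearest were Spred2 (0.0275), an inhibitor of Ras and MAP kinase signalling, Shank2 (0.0330), a scaffold of the postsynaptic density, and Thsd4 (0.0343), a matrix protein. Of these 3, Shank2 (-0.32, adjusted p = 0.0400) and Thsd4 (-0.40, adjusted p = 0.0163) passed and Spred2 did not (-0.34, adjusted p = 0.0675). The split depended on the setting: of 17 other settings, Shank2 passed in 9, Thsd4 in 13 and Spred2 in 4.

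**Figure D4:**
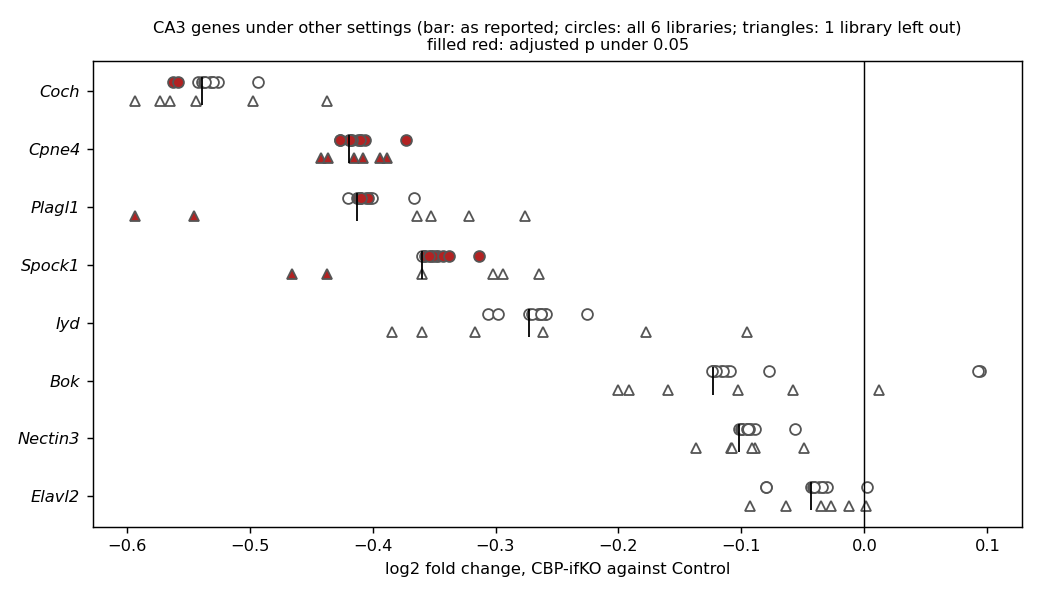
Log2 fold change of the CA3 genes under each of the settings tried, with the black bar for the value reported, circles for fits of all 6 libraries and triangles for fits with 1 library left out; filled points have an adjusted p under 0.05. Cpne4 is filled throughout between -0.44 and -0.37, Spock1 is filled in some settings, and Nectin3, Bok, Iyd and Elavl2 in none.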

How the data were processed

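Hippocampal RNA of 3 Control and 3 CBP-ifKO samples was sequenced single-end. Groups and replicate numbers came from the sample titles. Per the study's methods and the submitters' processing notes, the authors trimmed reads with Trim Galore (0.6.4), aligned them with STAR (2.6.1) to GRCm38 (mm10), removed poorly mapping reads and counted the rest over Ensembl exons with Rsubread. FastQC (0.11.8) and DESeq2 (1.30.1) are also named there. The deposited values are raw counts per gene, not normalized, with gene lengths beside them. The strand setting is not given in the sources used here, so reads of overlapping antisense genes cannot be told apart.

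Symbols and coordinates came from a GENCODE annotation of the same build, which matched 55230 of 55471 identifiers (99.57%). The tests used edgeR 4.0.16 in R 4.3.3: its quasi-likelihood test of the counts, TMM scaling, filterByExpr (minimum count 10, minimum total 15) and p-values adjusted by Benjamini-Hochberg over 17981 genes, with an adjusted p under 0.05 as the threshold. An SE is the size of the log2 fold change over the root of F. Replicates varied by 6.81% (common biological coefficient of variation). Intervals and counting errors cover the model and the counts only, and total counts of 10199008 to 14950257 limit genes of a few CPM.

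The genes and lists were chosen with earlier results of these data known. Named were the CA3 genes, checks of the labels and, for each family, its calls (up to 4 by size) and its most abundant member. The 3 genes most like each called CA3 gene were also named. Cpne7, Cpne8, Grik4, Spock2, Spock3 and Vit fall outside this rule and were named after their values were seen. For markers of other cells, only counts, medians and sums are given. Alternatives were DESeq2 1.42.0, limma-voom (limma 3.58.1), robust dispersions, other scalings and filters, a replicate block, offsets for GC content and length, and leaving out each library. Adjusted p-values that DESeq2 gave as NA were left as such. Scripts were tested on simulated data.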

Additional observations from a re-analysis of the deposited data

How the results depend on the processing

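Cpne4 kept its call in all 17 alternatives, and the median of the 8 CA3 genes stayed below 0, from -0.32 to -0.27 with all libraries and from -0.41 to -0.23 with 1 library left out. The number of CA3 genes called was 1 with robust dispersions, 4 under offsets for GC and length plus the replicate block (Cpne4, Spock1, Coch and Plagl1), and 1 to 3 with a library left out. Among the other CA3-enriched genes 1 to 3 were called with a library left out, the lowest whichever CBP-ifKO library that was. The genes called in all were 1839 with the replicate block and the offsets together, 903 with DESeq2, and 498 to 1326 with a library left out, the lowest with the second CBP-ifKO library left out. Leaving out the third Control library gave 546 and leaving out the third CBP-ifKO library 526.

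The share of lower genes among the calls was 78.1%, but 56.5% when scaled by library totals only, which moved the median of all genes to 0.04, 66.2% with GC and length offsets, and 61.0% with the block added. Changes of sign concerned small log2 fold changes. With library totals only, Elavl2 stood at 0.0021 and Elavl3 at 0.028. With GC and length offsets Bok stood at 0.094, Elavl3 at 0.064 and Sparcl1 at -0.0027, and with the replicate block added at 0.092, 0.065 and -0.0012. With a library left out, Elavl2 ranged from -0.093 to 0.0015, Bok from -0.20 to 0.011, Elavl3 from -0.072 to 0.035 and Sparcl1 from -0.023 to 0.070. The cause of these changes was not tested.

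The sample titles give replicate numbers but no pairing, and over all genes tested the deviations of same-numbered libraries correlated at only 0.0769, 0.0369 and 0.00216. Whether single genes share a replicate effect was not tested. A replicate block gave 1210 calls, of which 1091 were shared, and added Plagl1 (adjusted p = 0.0358) to the CA3 genes called. With the block, Spock1 had an SE of 0.062 (edgeR, adjusted p = 0.00242). Depth limits Iyd and Coch, at 38 to 70 counts per library.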
